A study of Caenorhabditis elegans with 7 samples.

Results

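The regions described here are the annotated 3′ UTRs of the X chromosome of Caenorhabditis elegans, taken as every table entry on that chromosome with a distinct start, end and strand. There were 4828 such regions among 38377 in the whole tables (12.6%), and 33538 regions of the autosomes I to V served as background. Because the annotated 3′ UTRs of isoforms and neighbouring genes overlap and repeat each other's reads, the most-read region of each overlapping set on a strand was kept, which left 4197 X regions and 27918 autosomal ones. Of the 4197, 2490 held at least 1 read in some library, 1450 held reads in every library and 1707 held none. Whole L4 larvae were profiled by SLAM-ITseq, which tags the new RNA of chosen cells: where uracil phosphoribosyltransferase is present, 4-thiouracil from the food enters transcripts and is later read as a T-to-C mismatch (T>C). Strain BN1158, without FLP recombinase, was the control (4 libraries, numbered 1 to 4 by replicate), and strain BN1190, with FLP under the dpy-7 promoter in the hypodermis, was the hypodermal strain (3 libraries, numbered 1 to 3). Both strains were raised at 20 °C for 28 h, 3 plates to a sample, and then had 4-thiouracil for 17 h, so the controls were fed the label too. RNA came from whole animals, so fewer cells of a type and less RNA per cell cannot be told apart.

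The X chromosome is the sex chromosome of C. elegans. Hermaphrodites carry a pair and males a single copy, and in hermaphrodites a condensin-based dosage compensation complex, recruited by SDC-2, binds the X and lowers its transcription. In the germline most X-linked genes are silenced, whereas many genes for muscle, neurons, gut yolk proteins and the cuticle lie on the X. The balance of signal genes on the X and on the autosomes sets the level of xol-1, the switch gene of sex determination.

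Libraries held 5021551 to 61464889 reads in kept regions, of which 445239 to 5827824 lay on X, with control replicate 2 the shallowest. Control replicate 2 also stood apart in label, as its T>C shares show below, so the totals on label are given with and without it, and a control mean of a gene or list that it moved by over 1.5 times is given both ways. The headers of 5 libraries (control replicates 2 to 4, hypodermal replicates 2 and 3) name a flow cell and those of the other 2 do not. Defining markers of hypodermis, intestine, muscle, pharynx, neurons and germline were read in all 7 libraries, among them the X-linked dpy-7 at 23.0 to 60.4 CPM (reads scaled to a library size of 1000000) in controls and 24.8 to 50.03 in the hypodermal strain. Some markers parted the strains by narrow gaps. The germline marker pgl-1 had 152 to 346 CPM in controls and 116 to 150 in the hypodermal strain. The muscle marker myo-3 had 172 to 199 and 204 to 245 CPM, and the neuronal rab-3 18.5 to 30.3 and 30.7 to 39.3 CPM. All other markers overlapped between the strains, among them glh-1, unc-54 and egl-21 of the same tissues. Of the sperm markers, ssq-1 had 184 to 357 CPM in controls and 151 to 225 in the hypodermal strain, and msp-19 had 1.69 to 8.19 and 5.37 to 6.88 CPM. The labels do not say whether replicates came from separate cultures, so the p-values reflect spread among these libraries alone, and part of it may be technical.

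Most X reads came from protein-coding genes. They accounted for 2980 of the 4828 X regions and 97.9% of X reads, and 1196 further regions belonged to ncRNAs, of which 125 kept ones had reads. X regions were longer than autosomal ones. Among kept regions with reads the median length was 174 bases on X and 129 bases on the autosomes, and 5.70% of X regions and 3.94% of autosomal regions had 600 bases or more. Their T content, which sets how many positions can show label, was alike, with medians of 39.7% and 39.9%. Each X read covered 19.7 to 24.8 T positions, the lowest value in control replicate 2. Reads on X were concentrated in few regions. The 12 most-read regions held 28.0% of X reads over all libraries, against 7.99% for the 12 most-read autosomal regions, and 41 X regions held 50% of X reads where 199 were needed on the autosomes. Cut into parts of equal length, the X held 40.6% to 44.2% of its reads in the middle part (5920218 to 11806660 in WBcel235), 29.8% to 34.8% in the left part and 23.2% to 27.7% in the right part.

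The first comparison asked what share of each library the X supplied. X regions took 9.78%, 8.87%, 10.2% and 10.3% of reads in controls 1 to 4 and 9.48%, 10.4% and 10.5% in hypodermal libraries 1 to 3. The groups overlapped, and X held the smallest share of the 6 chromosomes in all 7 libraries. The means were 9.79% ± 0.655 (SD, n = 4) in controls and 10.1% ± 0.558 (SD, n = 3) in the hypodermal strain. The strains thus differed by 0.333 percentage points, less than the spread between controls (two-sided exact permutation test, p = 0.543, smallest possible 0.0286). It was 0.649 points among the 5 flow-cell libraries and −0.298 points between the other 2. X supplied 13.8% of kept protein-coding regions, more than its share of reads.

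**Figure D1:**
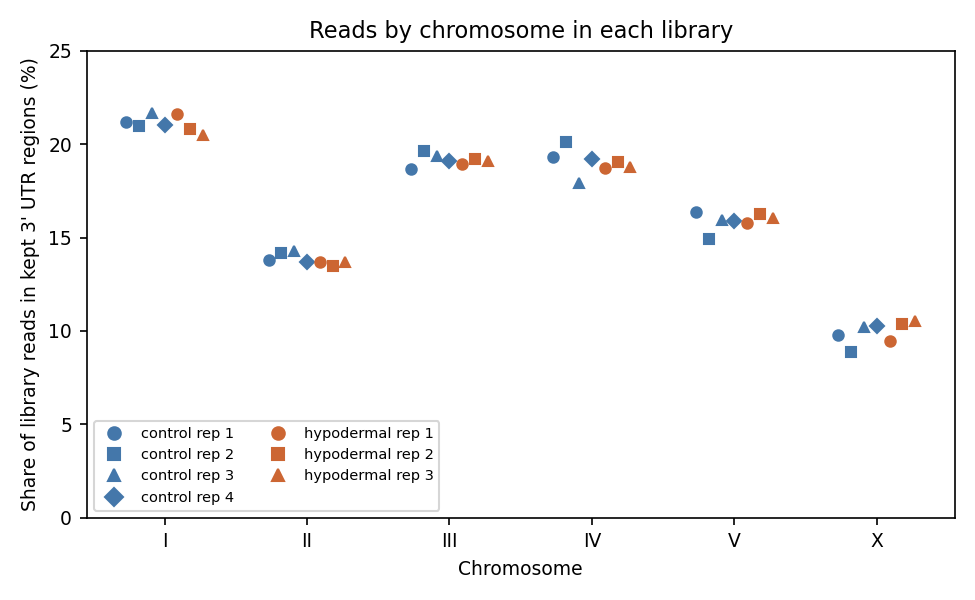
Percent of the reads in kept 3′ UTR regions that lay on each chromosome, on the vertical axis, for each of 4 control (blue) and 3 hypodermal (orange) libraries, with the marker shape giving the replicate. X sits between 8.87% and 10.5% in all 7 libraries, under every autosome.

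The typical X region was read less than the typical autosomal one. Among regions with any read, the median X region had 3.79, 3.74, 3.03 and 3.91 CPM in controls 1 to 4 and 3.89, 3.87 and 4.05 CPM in hypodermal libraries 1 to 3. The autosomal median was 5.60, 5.62, 4.36 and 5.06 CPM in the controls and 5.76, 5.05 and 5.32 CPM in the hypodermal libraries. The X median was the lower in every library. The log2 ratio of the X median to the autosomal median averaged −0.48 (SD 0.095, n = 7), below 0 in all 7 libraries (two-sided exact sign-flip test, p = 0.0156, the smallest possible). It was −0.61 in protein-coding genes alone. Divided by region length, which is longer on X, the log2 ratio was −1.15 (exact p = 0.0156). Within regions under 100 bases the ratio of medians was −1.79 (SD 1.32), within those of 100 to under 300 bases −1.10 (SD 0.13), and within those of 300 bases and over −0.60 (SD 0.15), below 0 in all 7 libraries in each class. In the shortest class the library values ran from −4.75 to −1.07, so the lowest library weighs heavily on its mean. A trend with length was not tested. The kit reads 3′ ends of mRNA, so reads per region are the usual measure of level and values per length are given as a second view. The strains did not differ detectably in this ratio (difference 0.060, two-sided exact permutation p = 0.457).

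Labelled reads on X were compared between the strains next. Reads with T>C made up 2.99%, 4.10%, 2.96% and 2.94% of X reads in controls 1 to 4 and 3.63%, 3.76% and 3.87% in hypodermal libraries 1 to 3. Control replicate 2 lay above all 3 hypodermal libraries (95% Wilson interval 4.04% to 4.16%), and the other 3 controls lay below them. The means were 3.25% ± 0.566 (SD, n = 4) and 3.75% ± 0.120 (SD, n = 3), a difference of 0.501 points within the spread of the controls (one-sided exact permutation test, p = 0.114, smallest possible 0.0286). Without control replicate 2 the control mean was 2.96% ± 0.0255 (n = 3), the difference was 0.784 points and the exact one-sided p was 0.05, the smallest that 20 splits allow. The difference was 0.477 points within the flow-cell libraries and 0.635 points between the other 2. Such intervals speak of counting error alone, because the labels name no molecular identifiers. By the median X region with 100 or more reads the controls lay further apart than by pooled reads. That median was 0.490%, 3.40%, 0.625% and 2.08% T>C in controls 1 to 4. In hypodermal libraries 1 to 3 it was 2.13%, 2.44% and 3.09%.

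**Figure D2:**
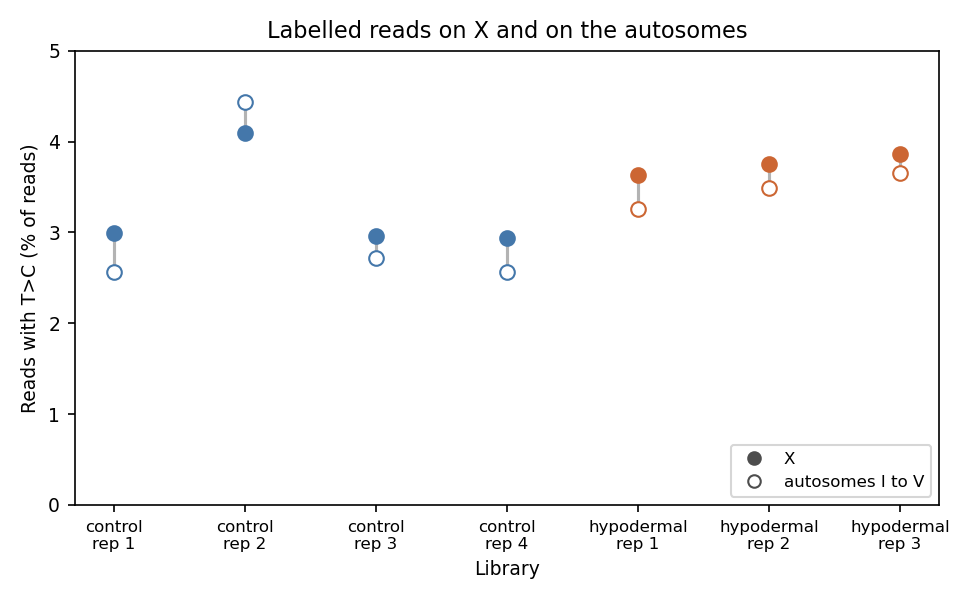
Percent of reads with T>C (vertical axis) on X (filled) and on the autosomes I to V (open) in each library, controls in blue and the hypodermal strain in orange. The X value lies above the autosomal one in 6 of 7 libraries and below it in control replicate 2 (4.10% against 4.44%).

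Against the autosomes of the same library, X reads carried slightly more T>C in all but the shallowest library. Autosomal reads with T>C made up 2.57%, 4.44%, 2.72% and 2.56% in controls 1 to 4 and 3.26%, 3.48% and 3.65% in hypodermal libraries 1 to 3. X had the highest T>C share of the 6 chromosomes in 6 libraries and the fifth highest in control replicate 2. Per covered T position, X ranked first in 4 libraries (control replicates 1, 3 and 4 and hypodermal replicate 1), second in hypodermal replicate 2, at rank 3 in hypodermal replicate 3 and last in control replicate 2. The log2 ratio of the odds of T>C on X to those on the autosomes was 0.23, −0.12, 0.12 and 0.21 in controls 1 to 4 and 0.16, 0.11 and 0.085 in hypodermal libraries 1 to 3. Its mean of 0.11 (SD 0.11, n = 7) was not distinguished from 0 (two-sided exact sign-flip test, p = 0.0625, smallest possible 0.0156), and without control replicate 2 it was 0.15 (exact p = 0.0312). The ratio did not differ detectably between the strains, at 0.11 ± 0.16 in controls and 0.12 ± 0.037 in the hypodermal strain (difference 0.0099, two-sided exact permutation p = 0.971).

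The excess depended on which genes were counted. The muscle list is a set of sarcomere and muscle genes that also holds the basement membrane collagen let-2. Without its genes the mean log2 odds ratio was 0.025 (exact p = 0.484), and without the 10 most-read regions of X and of the autosomes it was 0.033 (exact p = 0.422). Per covered T position, which allows for the number of Ts a read holds, it was 0.066 (exact p = 0.234). Restricted to protein-coding genes it was 0.12, and without ribosomal protein genes 0.11 (exact p = 0.0469 for both). For the median region with 100 or more reads the mean log2 ratio was 0.15 (exact p = 0.0469). There control replicate 1 lay below 0, at −0.077, and control replicate 2 above it, at 0.15. By length, the ratio was −0.065 (SD 0.16, above 0 in 3 of 7 libraries) in regions under 100 bases, 0.14 (SD 0.12, above 0 in 6) at 100 to under 300 bases and 0.15 (SD 0.11, above 0 in 6) at 300 bases and over. Regions with 100 or more reads and no T>C read at all made up 23.1%, 4.28%, 32.6% and 14.4% of such X regions in controls 1 to 4 and 17.3%, 19.3% and 11.1% in hypodermal libraries 1 to 3, so the lowest share was that of control replicate 2. On the autosomes such regions made up 20.1%, 6.87%, 34.4% and 13.4% in the controls and 13.5%, 17.8% and 10.2% in the hypodermal libraries. The X share was thus the higher in 5 of 7 libraries and the lower in control replicates 2 and 3.

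**Figure D3:**
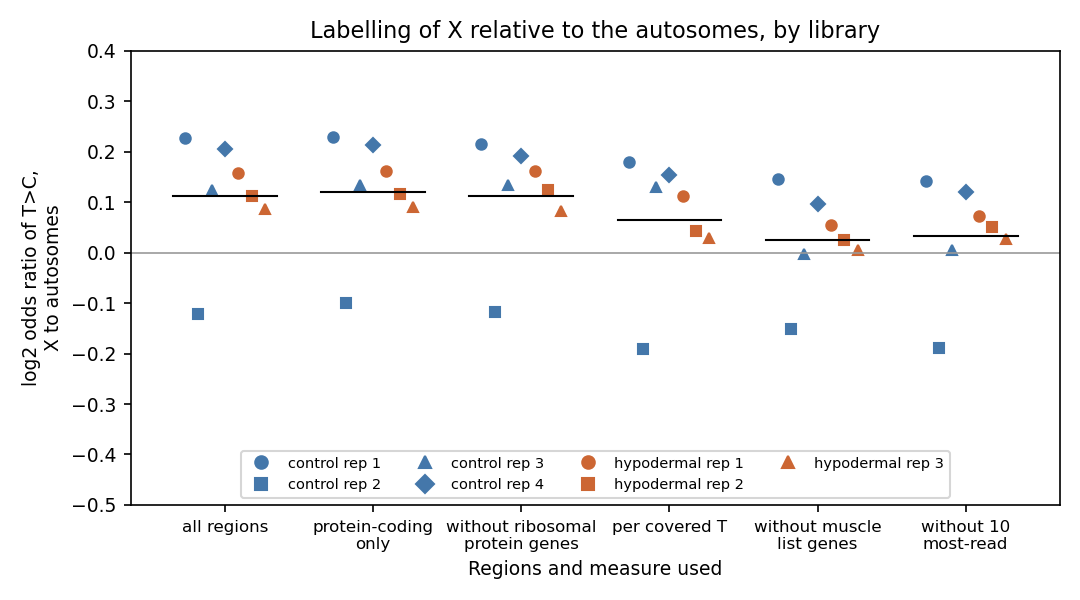
Log2 ratio of the odds of T>C reads on X to those on the autosomes (vertical axis) in each library, for all regions and for 5 other choices of regions or measure; short black lines are means over 7 libraries. The mean is 0.11 for all regions, 0.025 without muscle list genes and 0.033 without the most-read regions. Control replicate 2 lies below 0 in all 6 choices drawn. For the median region with 100 or more reads, not drawn, it was at 0.15 and control replicate 1 at −0.077.

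Muscle, translation and collagen genes supplied most of the 12 most-read X regions. First by CPM was act-4, a muscle actin (WBGene00000066, WBcel235 chromosome X, 4963985 to 4964416, plus strand, 3′ UTR), with 4608, 3310, 5845 and 6989 CPM in controls 1 to 4 and 5295, 7256 and 6604 CPM in hypodermal libraries 1 to 3. Its groups overlapped, and its T>C share was 4.97% ± 0.609 in controls and 5.19% ± 0.275 in the hypodermal strain. The act-4 region overlaps an annotated region on the opposite strand, and how strand was treated in counting is not stated in the sources. The ribosomal protein gene rpl-11.2 followed with 3631 ± 1220 CPM in controls and 4257 ± 719 CPM in the hypodermal strain, and it ranked first on X per length. The basement membrane collagen let-2, made largely by body wall muscle, had 2167, 1571, 5111 and 2002 CPM in controls 1 to 4 and 2075, 2663 and 2556 CPM in hypodermal libraries 1 to 3, so control replicate 3 stood above the rest. Among the others of the first 12 were unc-27 (troponin I), mlc-1 (a myosin light chain), pdi-2 (a protein disulfide isomerase used in collagen hydroxylation), asp-3 (an aspartic protease of the gut), eef-1A.2 (translation elongation factor 1A) and ftt-2 (a 14-3-3 protein). The cuticle collagens col-167 and col-168 and F46H5.3 completed them. None of the 12 was called in reads or in labelling by edgeR, and their log2 changes in reads lay between −0.25 (unc-27) and 0.30 (act-4). Their T>C shares differed widely. In controls the means ran from 1.77% ± 0.447 for ftt-2 to 4.97% ± 0.609 for act-4, with F46H5.3 at 4.87% ± 0.389. The region of mlc-1 carried 3.40% ± 0.541 in controls and 4.41% ± 0.183 in the hypodermal strain. It overlaps a region on the opposite strand, and the near-identical gene copy mlc-2 may share reads with it. F46H5.3 carried 6.36% ± 0.832 in the hypodermal strain. In both regions every hypodermal library lay above every control. Over all regions deep enough for the labelling test and with reads in all libraries, 5.76% did so.

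**Figure D4:**
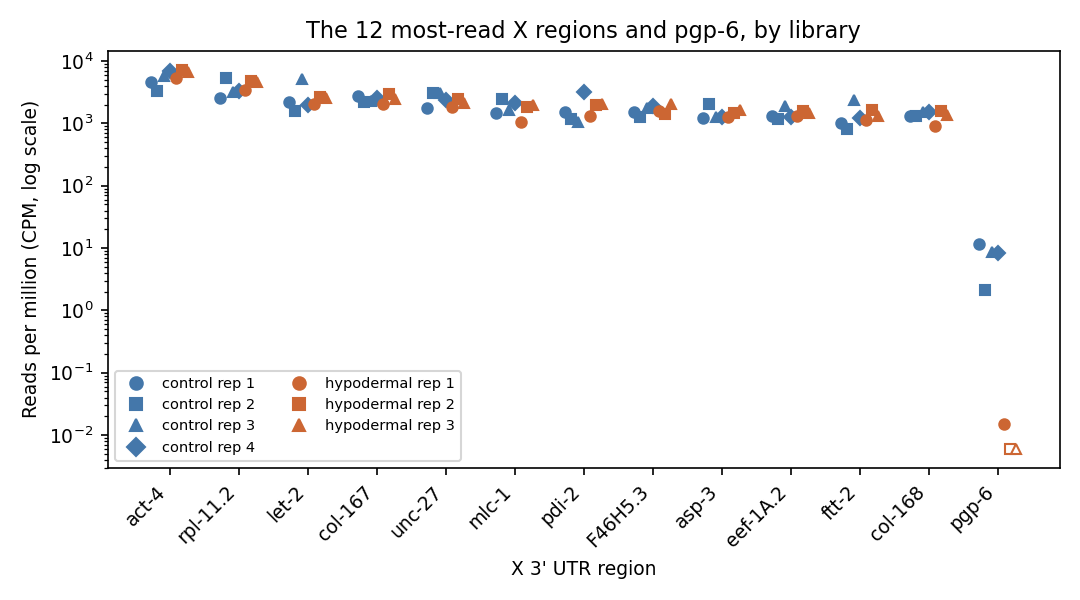
CPM on a log axis (vertical) of the 12 most-read X regions and of pgp-6 in each library; open symbols for pgp-6 mark libraries with 0 reads and are drawn at an arbitrary low value. The 12 regions differ little between strains, and pgp-6 is read in all 4 controls and by 1 read in total in the hypodermal strain.

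Gene groups were next followed through their X members. Muscle genes had 21 of 67 measured list genes on X (31.3%), let-2 among them, and these held 17.6% of X reads. Their T>C shares were 4.19%, 4.75%, 4.26% and 4.08% in controls 1 to 4 and 5.25%, 4.98% and 5.07% in hypodermal libraries 1 to 3. Each hypodermal library lay above each control, control replicate 2 included, at means of 4.32% ± 0.298 and 5.10% ± 0.136. The autosomal muscle genes carried more, at 5.27% ± 0.728 in controls and 6.09% ± 0.203 in the hypodermal strain. Their groups overlapped, as control replicate 2 (6.32%) lay above hypodermal replicates 2 and 3 (5.97% in both). Of 20 X muscle genes tested for labelling 0 were called by edgeR and 3 (15.0%) had an unadjusted p under 0.05, all higher. Over all regions tested 0.0% were called, and 2.75% were higher and 0.446% lower at an unadjusted p under 0.05. Their median log2 odds ratio was 0.35, below the 0.54 of all regions tested.

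Gut and yolk genes had 30 of 94 measured list genes on X (31.9%). Their X members carried 3.48%, 5.40%, 2.59% and 3.33% T>C in controls 1 to 4 and 4.54%, 4.25% and 4.89% in hypodermal libraries 1 to 3, with control replicate 2 the highest of all. The yolk protein gene vit-2 had 397, 602, 442 and 258 CPM in controls 1 to 4 and 235, 309 and 207 CPM in hypodermal libraries 1 to 3. The groups overlapped, and the log2 change of −0.76 (SE 0.33) was not called (edgeR unadjusted p = 0.0383, adjusted p = 1.0). The vit-3, vit-4 and vit-5 regions gave −0.96, −1.06 and −0.81, and vit-1 gave −0.68. The genes vit-3 to vit-5 are near-identical, but their regions here are 103, 54 and 48 bases long. The sequences of these regions were not compared, so whether reads were split among them is not known. None of the 5 yolk protein genes was called. The cathepsin B-like protease cpr-6 went the other way, with 645 ± 88.3 CPM in controls and 1059 ± 195 CPM in the hypodermal strain, where every library lay above every control (log2 0.72, SE 0.25, edgeR adjusted p = 1.0). Elt-2, the GATA factor of the gut, had 13.0 ± 4.77 CPM in controls and 8.15 ± 2.75 CPM in the hypodermal strain, with 0.0681% ± 0.136 and 2.55% ± 2.27 T>C.

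Neuronal genes had 51 of 168 measured list genes on X (30.4%) but only 0.993% of X reads. Their X members carried 3.73% ± 1.23 T>C in controls (3.19% ± 0.709 without control replicate 2) and 3.88% ± 0.345 in the hypodermal strain, and 0 of 34 tested were called or had an unadjusted p under 0.05. The best-read were cab-1, which acts in neurosecretion, with 164 ± 31.5 and 170 ± 63.6 CPM, and the neuropeptide genes nlp-49 and flp-28. Genes of the germline and of the ribosome were scarce on X. Germline genes had 2 of 121 (1.65%), namely meg-1 and meg-3, which act in P granules, and ribosomal protein and translation genes had 3 of 87 (3.45%), namely rpl-11.2, eef-1A.2 and rpl-25.1. The X supplied 13.8% of kept protein-coding regions. Meg-1 had 7.79 ± 2.66 CPM in controls and 2.33 ± 0.928 in the hypodermal strain, with every hypodermal library below every control (log2 −1.74, SE 0.61, edgeR unadjusted p = 0.0151, adjusted p = 1.0).

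Cuticle genes, the products of the tissue meant to be labelled, overlapped between the strains in label on X. Collagens and other matrix genes had 30 of 175 measured list genes on X (17.1%) with 9.91% of X reads. Their T>C shares were 2.34%, 3.39%, 2.57% and 2.27% in controls 1 to 4 and 2.32%, 2.64% and 2.79% in hypodermal libraries 1 to 3. The groups overlapped also without control replicate 2, whose omission moved the control mean from 2.64% ± 0.513 to 2.40% ± 0.156 against 2.58% ± 0.241. Of 23 tested X members 0 were called, 1 was higher and 1 lower at unadjusted p under 0.05 (2.75% and 0.446% over all regions tested), and the median log2 odds ratio was 0.095 where that of all regions was 0.54. The lower member was col-168, with 2.54% ± 0.601 in controls and 1.61% ± 0.350 in the hypodermal strain (log2 −0.67, SE 0.30, edgeR unadjusted p = 0.0271, adjusted p = 1.0). In reads, col-181 had 978, 1560, 1419 and 924 CPM in controls 1 to 4 and 456, 856 and 625 CPM in hypodermal libraries 1 to 3. All hypodermal values lay below all controls, and the log2 change of −0.92 (SE 0.31) was not called (edgeR unadjusted p = 0.0138, adjusted p = 1.0). Dpy-7, the collagen whose promoter drives FLP here (WBGene00001069, chromosome X, 7536417 to 7536652, minus strand), had T>C on 3 of 1346, 4 of 99, 0 of 190 and 8 of 1228 reads in controls 1 to 4 and on 43 of 2440, 8 of 486 and 6 of 950 reads in hypodermal libraries 1 to 3. That is 1.23% ± 1.89 and 1.35% ± 0.622, or 0.291% ± 0.331 in controls without control replicate 2. Its log2 odds ratio of 1.01 (SE 1.34) was not called (edgeR adjusted p = 1.0). The hedgehog-related and patched-related families, epidermal signalling-like proteins, had 12 of 67 genes on X, with 2.54% ± 0.747 T>C in controls (2.18% ± 0.256 without control replicate 2) and 2.81% ± 0.140 in the hypodermal strain, and 0 of 10 tested were called. Grd-14, wrt-6 and wrt-4 were their best-read members on X, at 370 ± 153, 89.5 ± 41.7 and 68.0 ± 23.7 CPM in controls and 264 ± 91.7, 76.3 ± 14.1 and 104 ± 12.2 CPM in the hypodermal strain.

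**Figure D5:**
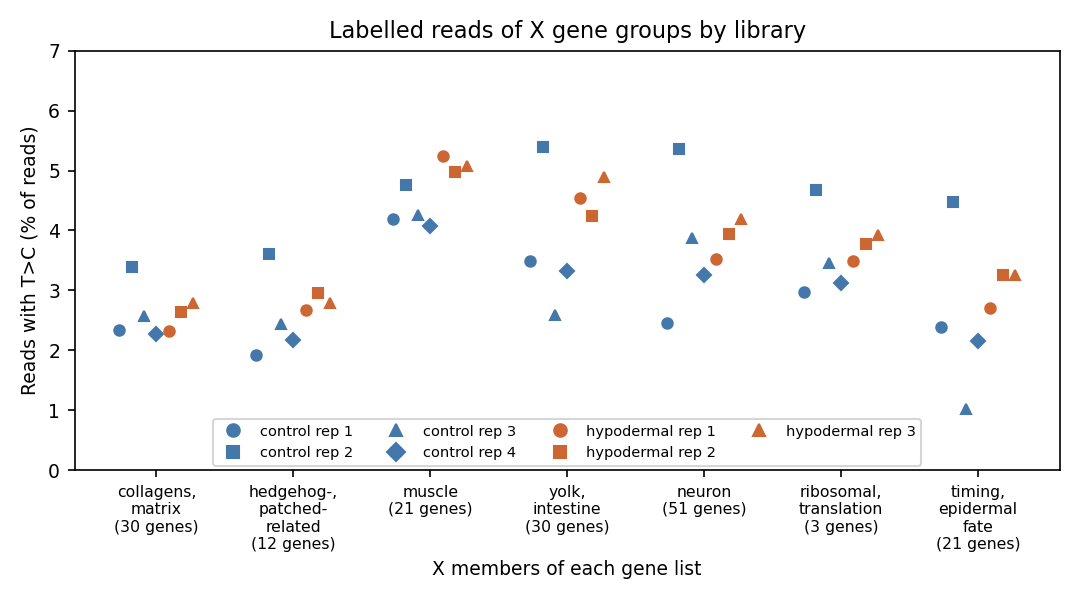
Percent of reads with T>C (vertical axis) in the pooled X members of 7 gene lists, for 4 control (blue) and 3 hypodermal (orange) libraries. All hypodermal libraries lie above all controls for muscle genes alone among these 7 lists, and control replicate 2 is the highest library in the other 6.

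Genes that count the X chromosomes and set sexual fate supplied few X reads. Of 29 measured list genes, hbl-1 among them, 8 lay on X, holding 0.0475% of X reads. Their best-read members were dpy-22, a Mediator subunit, with 11.5 ± 5.43 CPM in controls and 20.2 ± 4.29 in the hypodermal strain, and fox-1, an RNA-binding X signal gene, with 12.4 ± 4.75 and 13.4 ± 5.63 CPM. The nuclear receptor gene sex-1, also an X signal, had 7.72 ± 3.67 and 5.03 ± 1.06 CPM, and sdc-2, which directs dosage compensation, had 3.06, 1.17, 0 and 2.31 CPM in controls 1 to 4 and 2.63, 1.17 and 1.32 CPM in hypodermal libraries 1 to 3. The male-determining switch xol-1 had 0 reads in control replicates 1 to 3 and 19 in control replicate 4, and 16, 41 and 29 reads in hypodermal libraries 1 to 3. It did not reach the mean of 20 reads needed for the test. None of these genes was called, and 4 X members were deep enough to be tested for labelling. Those 4 had a median log2 odds ratio of 2.56, where that of all regions was 0.54. The 2 medians are not on an equal footing, because the 10 T>C reads needed in total can come from 1 strain alone. Fox-1, for example, had 1, 0, 1 and 0 T>C reads in controls 1 to 4 and 31, 2 and 13 in hypodermal libraries 1 to 3. No conclusion is drawn from the higher median. Reads of the X members carried 1.23% ± 1.55 T>C in controls (0.456% ± 0.101 without control replicate 2) and 4.71% ± 2.75 in the hypodermal strain. The groups overlapped, with control replicate 2 at 3.55% of 141 reads and hypodermal replicate 2 at 2.56%. Much of the label of these X members in the hypodermal strain came from dpy-22. It had T>C on 56 of 1024, 22 of 431 and 73 of 442 reads in hypodermal libraries 1 to 3. The X members together held 3146, 936 and 1256 reads there, of which 3.75%, 2.56% and 7.80% had T>C. In controls 1 to 4 dpy-22 had T>C on 5 of 950, 5 of 35, 0 of 46 and 4 of 314 reads.

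Developmental timing and epidermal fate genes had 21 of 64 list members on X, and their X members carried 2.51% ± 1.44 T>C in controls (1.86% ± 0.735 without control replicate 2) and 3.07% ± 0.319 in the hypodermal strain, with 0 of 17 called. The hunchback-like timing gene hbl-1 had 7.28 ± 3.50 and 8.89 ± 0.639 CPM, and the nuclear receptor gene daf-12 12.3 ± 3.94 and 12.9 ± 5.58 CPM. Lin-14, an early timing gene, was represented by a 101-base region with 0 reads in all 7 libraries, which allows up to 0.0448 CPM in the deepest library and 0.702 CPM in the shallowest for that region. Lon-2, the glypican that restrains body size signalling, had 4.46, 6.08, 0 and 2.56 CPM in controls 1 to 4 and 3.05, 2.09 and 2.26 CPM in hypodermal libraries 1 to 3. Sma-9, the Schnurri factor of the same pathway, had 45.4 ± 12.1 and 53.3 ± 11.9 CPM.

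Region by region, few X regions parted the strains in total reads. Over 13206 regions tested, of which 1796 lay on X, edgeR's quasi-likelihood test called 0 X regions higher (background 0.0%) and 1 lower (background 0.0151%) in the hypodermal strain at an adjusted p under 0.05. At an unadjusted p under 0.05, 16 X regions were higher and 31 lower, where the background over all chromosomes was 0.689% and 1.58%. The median log2 change was 0.038 on X and −0.012 over all regions. The lower region was that of pgp-6, a P-glycoprotein of the ABC transporter family (chromosome X, 10871181 to 10871345, minus strand). It held 667, 9, 71 and 168 reads in controls 1 to 4 and 1, 0 and 0 reads in hypodermal libraries 1 to 3. The groups did not overlap, and the pooled ratio of scaled reads was 1076 in favour of the controls. Its counting interval of 193 to 42545 covers counting error alone and leaves out the spread between controls, 2.11 to 11.7 CPM. The ratio rests on the same reads that gave the call, so it is no separate evidence for that call. The fitted log2 change of −9.22 (SE 1.18, edgeR adjusted p = 0.0472) lost its call in 6 of the 7 fits that left out a library, at adjusted p of 0.0949 to 0.970, and among the flow-cell libraries alone (0.619). The log2 change itself was −10.38 to −8.86 in the fits that left out a library and −9.51 in the flow-cell libraries. Its nearest neighbours on the chromosome were hardly read, with 1 read in controls and 3 in the hypodermal strain for pgp-8 and 1 and 0 for T21E8.6, and 3 ncRNA regions within 25 kb had none. Whether the strains differ in DNA at this locus was not tested. Of the farther genes, pgp-5, 16.9 kb away, had 292, 29, 0 and 91 reads in controls 1 to 4 and 129, 10 and 34 in hypodermal libraries 1 to 3, F47B10.5 at 17.9 kb had 515 reads in controls and 1025 in the hypodermal strain, and haly-1 (histidine ammonia-lyase) at 22.4 kb had 1265 and 1112. None of these 3 was called.

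DESeq2 called 6 X regions in the same comparison, 1 higher (background 0.0686%) and 5 lower (background 0.145%), which besides pgp-6 were C45B2.2, C14E2.12, ZK813.3, fipr-3 and the invertebrate lysozyme gene ilys-5. They are named here after their values were seen. C45B2.2 was the higher one, with 58.2, 62.2, 58.0 and 81.5 CPM in controls 1 to 4 and 172, 149 and 133 CPM in hypodermal libraries 1 to 3 (edgeR log2 1.22, SE 0.27, adjusted p = 1.0). A 972-base region of ilys-5 had 132, 104, 350 and 64.2 CPM in controls 1 to 4 and 10.7, 31.7 and 45.1 CPM in hypodermal libraries 1 to 3, and a separate 57-base region of the gene had 90.2 ± 42.1 and 29.4 ± 11.9 CPM. Both regions were lower in every hypodermal library than in every control. C14E2.12 had 1124 ± 690 CPM in controls and 337 ± 46.8 CPM in the hypodermal strain, ZK813.3 23.7 ± 16.2 and 4.62 ± 2.38, and fipr-3 (a gene of the fungus-induced protein family) 32.7 ± 7.32 and 11.7 ± 2.86. The fipr-3 region overlaps a region on the opposite strand. By an unadjusted edgeR p, nlp-14 (a neuropeptide-like gene) and zig-3 (a secreted immunoglobulin-domain protein) were higher, at 24.5 ± 10.3 against 54.3 ± 9.37 CPM and 0.434 ± 0.486 against 5.92 ± 1.06 CPM.

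The same test on labelled and unlabelled reads found no single X region. Of 10097 regions tested 1306 lay on X, and edgeR called 0 X regions higher and 0 lower (background 0.0% in both directions). At an unadjusted p under 0.05, 35 X regions were higher and 9 lower, against a background of 2.75% and 0.446%. The median log2 odds ratio was 0.54 on X and 0.54 over all regions, and 887 X regions (67.9%) lay above 0, against 70.1% of autosomal regions. Limma on log2 odds also called 0, with 39 higher and 28 lower at an unadjusted p under 0.05 (background 2.42% and 1.5%). Non-overlap was counted in the regions deep enough for the labelling test that also had reads in all libraries. Every hypodermal library lay above every control in 74 of 1196 such X regions (6.19%, background 5.76%) and below in 4 (background 0.371%). The labelling test needs 10 T>C reads in total, which 1 strain alone can supply, so counts above and below are not on an equal footing. Without control replicate 2 these counts were 183 of 1201 (15.2%, background 15.5%) and 11 (background 0.645%), so the X shares lay near those of all chromosomes.

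The 5 X regions with the smallest p in the labelling test were fis-2, pgp-3, nspg-13, a 57-base region of ilys-5 and mua-6. Fis-2, a mitochondrial fission gene, had T>C on 4 of 1974, 1 of 48, 0 of 307 and 1 of 703 reads in controls 1 to 4 and on 75 of 1550, 34 of 419 and 16 of 298 reads in hypodermal libraries 1 to 3. All 3 hypodermal libraries lay above all controls, at 6.11% ± 1.76 against 0.607% ± 0.988, or 0.115% ± 0.104 in controls without control replicate 2 (log2 odds ratio 4.72, SE 1.56, edgeR unadjusted p = 0.00251, adjusted p = 1.0), and its region overlaps one on the opposite strand. Pgp-3, another P-glycoprotein gene, had T>C on 0 of 715, 2 of 100, 1 of 456 and 0 of 384 reads in controls and on 68 of 1552, 45 of 374 and 10 of 415 in the hypodermal strain. Mua-6, an intermediate filament protein that anchors muscle through the epidermis, carried 0.422%, 1.01%, 0.718% and 2.66% T>C in controls 1 to 4 and 3.04%, 5.30% and 3.39% in hypodermal libraries 1 to 3, again without overlap (log2 2.04, SE 0.77, edgeR unadjusted p = 0.00818, adjusted p = 1.0). Nspg-13, of a nematode-specific peptide family, carried 0.125%, 3.68%, 0.121% and 1.73% in controls 1 to 4 and 3.65%, 4.25% and 3.90% in hypodermal libraries 1 to 3, where control replicate 2 overlapped the hypodermal strain.

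Of the 198 genes in the authors' deposited table, whose mean conversion rate was higher in the hypodermal strain, 26 lay on X (13.1%), near the 12.9% of X among the regions tested here. All 26 had a log2 odds ratio above 0 in the edgeR fit on the deposited counts, and 11 had an unadjusted p under 0.05 there. These are the same libraries, so the shared direction is no independent evidence. By its name, the authors' table was cut at an adjusted p of 10% with at least 17 conversions, and it compares conversion rates. The edgeR test here used T>C reads and an adjusted p under 0.05, so the numbers of genes past the 2 cuts are not like for like. The smallest adjusted p-values in the authors' deposited table among X genes belonged to dpy-3, dhcr-24, mig-15, bus-8B and asb-2, at 0.0208 to 0.0485, with clec-265 tied with asb-2 in adjusted p and above it in unadjusted p. Dpy-3, a collagen of the cuticle furrows (chromosome X, 2144605 to 2144654, minus strand), had T>C on 1 of 430, 0 of 51, 0 of 35 and 4 of 372 reads in controls 1 to 4 and on 99 of 1314, 39 of 321 and 17 of 306 reads in hypodermal libraries 1 to 3. No hypodermal library overlapped a control (log2 odds ratio 4.22, SE 1.86, edgeR unadjusted p = 0.0234, adjusted p = 1.0). Bus-8B, a glycosyltransferase needed for the cuticle surface, carried 0.473% ± 0.486 in controls and 6.40% ± 1.25 in the hypodermal strain, also without overlap. The sterol reductase gene dhcr-24 carried 0.913% ± 1.39 in controls (0.222% ± 0.193 without control replicate 2) and 5.56% ± 1.18 in the hypodermal strain, and the kinase gene mig-15, of the Nck-interacting family, 0.565% ± 0.446 and 2.83% ± 0.160. Asb-2, an ATP synthase subunit read at 319 ± 43.1 CPM in controls, had the smallest difference of the 5, at 3.57% ± 0.398 and 5.02% ± 0.264, and its groups did not overlap.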

How the data were processed

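Libraries of mRNA 3′ ends from whole larvae were made with QuantSeq, per the labels' protocols. Slamdunk 0.4.3 produced the authors' counts, per the file headers. These deposited counts cover 47039 entries (5996 on X) and hold reads, reads with T>C, covered Ts and converted Ts. The conversion rate is a deposited fraction of converted among covered Ts. Region length and T content are as deposited. The authors' deposited table of 198 genes gives a p-value and adjusted p-value, mean conversion fractions and their ratio. Its 21 other columns were not used, and the sources used here do not name its test. The submitters' processing notes name ce10 and DESeq2 without a role, and coordinates follow the WBcel235 annotation named in the file headers. The deposited multimapping counts are 0 throughout, so near-identical genes (vit-3 to vit-5, mlc-1) may share or lose reads. Whether counting used strand is not stated.

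Entries were reduced to 38377 distinct regions, of which 38356 joined a gene through transcript or sequence names, and then to 32126 regions that do not overlap on a strand. Of the kept X regions 9 share sequence with another gene's region on the same strand and 240 on the opposite strand. CPM are reads over TMM-scaled library sizes. Reads and labelling were tested with edgeR 4.0.16 (quasi-likelihood, R 4.3.3) on all chromosomes, in regions averaging at least 20 reads per library and, for labelling, holding at least 10 T>C reads in total, with Benjamini-Hochberg adjustment over all regions tested. DESeq2 1.42.0 and limma 3.58.1 (0.5 added to each count) served as alternatives, and 80 regions to which DESeq2 gave no adjusted p were left out of its counts. The scripts were tested on simulated data. Library values were compared by exact permutation and sign-flip tests, one-sided for T>C shares because the construct can only add label. Intervals are Wilson at 95%, and an upper limit at 0 reads is 3 reads over the library size. Other tools were Python 3.11.15, pandas 2.3.3, NumPy 2.4.6, SciPy 1.17.1 and matplotlib 3.10.9.

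Named regions are the 12 most read on X, the 3 most read X members of each of 9 lists, those past a threshold (or the 5 of smallest p in labelling), 5 genes of the authors' table and a set of fixed names. The X regions and all lists were chosen with earlier results of these data known.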

Additional observations from a re-analysis of the deposited data

Results flagged for a closer look

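Among the 4 control libraries, 27 X values of 126 groups of values examined held 1 library whose gap to its nearest neighbour took up nearly the whole range of the group. Chance alone gives about 1 such group in 20 for normally distributed values, and values of the same library are not independent. Shares that rest on few reads need not keep to that rate. For elt-2, hbl-1, sex-1 and xol-1 every other control was 0, so any value above 0 was flagged. Control replicate 2 accounts for 14 of the 27, control replicate 3 for 6, control replicate 4 for 4 and control replicate 1 for 3.

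The X T>C share of control replicate 2, 4.10%, was the value of widest reach. In the same library the T>C share was high in let-2 (3.90%), wrt-4 (5.94%), dpy-7 (4.04%), vit-1 (7.04%), fis-2 (2.08%), pgp-3 (2.0%), dhcr-24 (2.99%), dpy-22 (14.3%), ZK813.7 (8.33%), daf-12 (12.1%) and pgp-6 (11.1%). Several of these rest on few reads, such as 1 labelled read of 48 for fis-2 and 1 of 9 for pgp-6. Its CPM was high in asp-3 (2039) and low in fis-2 (11.2).

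Control replicate 3 had a high level of let-2 (5111 CPM). Its T>C share was low in vit-4 (0.429%) and high in the 972-base region of ilys-5 (2.84%), nlp-14 (14.2%), fipr-3 (9.45%) and fox-1 (1.28%). Control replicate 4 had the high level in dpy-7 (60.4 CPM), mig-15 (34.4 CPM) and xol-1 (0.934 CPM), and a high T>C share in the 57-base region of ilys-5 (1.84%). Control replicate 1, the deepest control, alone had labelled reads in elt-2 (0.272%), hbl-1 (0.634%) and sex-1 (0.573%).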

How the results depend on the processing

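The strain difference in X read share lay between 0.0252 and 0.652 points in the alternatives tried, on the same side of the threshold, and was −0.298 points between the 2 libraries without a flow cell. The strain difference in X T>C share ran from 0.399 to 0.784 points with 1 library left out, the upper value and the only one at an exact one-sided p of 0.05 being that without control replicate 2. The excess of T>C on X over the autosomes ran from 0.094 to 0.15 (log2) with 1 library left out. It passed the threshold for the median region (0.15), in protein-coding genes (0.12) and without ribosomal protein genes (0.11). Its strain difference, near 0 throughout, changed sign per covered T (−0.0067), for the median region (−0.045) and over left-out libraries (−0.067 to 0.049), and the cause was not tested. The lower level of X was −0.45 among the flow-cell libraries, where 5 libraries cannot go below an exact p of 0.0625, and −0.50 to −0.46 with 1 library left out. In reads, 1 X region was called by edgeR, 6 by DESeq2, 0 among the flow-cell libraries and 0 to 1 with 1 library left out. Labelling calls on X were 0 in all 13 fits. The protein-coding, ribosomal, muscle, overlap and per-length settings were chosen after seeing the data. With the replicate number as a block, the X read share differed by 0.498 points, the X T>C share by 0.399 points, the labelling ratio by 0.042 and the level ratio by 0.10, and 0 X regions were called in reads or labelling. The numbers were not taken to pair the samples in the main tests. Same-numbered libraries deviated together at correlations of 0.49, 0.18 and −0.08, and control replicates 2 and 3 correlated best with another number. The value of 0.49 is that of the 2 libraries without a flow cell in the header. Whether the numbers pair the samples cannot be decided from these values. The search for the AATAAA signal at region ends was not run. Shallow libraries limit label in single regions, as control replicate 2 had 467 X regions with 100 or more reads and hypodermal replicate 1 had 1557.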

Other observations

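Labelled reads differed along the X. In the left of 3 parts of equal length T>C reads made up 3.42% ± 0.599 (SD, n = 4) in controls and 3.80% ± 0.137 (SD, n = 3) in the hypodermal strain, in the middle part 3.38% ± 0.680 and 3.88% ± 0.141, and in the right part 2.82% ± 0.385 and 3.45% ± 0.103. The most-read regions of these parts were act-4, col-167 and let-2. No test was made of these differences.

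Regions of ncRNAs, lincRNAs and snoRNAs on X were read as well, at 0.617%, 0.798% and 0.581% of X reads over all libraries, whereas 80 annotated miRNA regions gave 39 reads and 149 tRNA regions 272 reads.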
